A study of Mus musculus with 6 samples.

Results

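The interleukin genes and the genes of their receptors and antagonists were examined in the epididymal fat of ND- and HFD-fed mice. Members were the protein-coding genes whose GENCODE M21 symbol begins with Il and a digit, which gave 84 of the 54532 genes in the count table. By role, 37 encode ligands, 40 encode receptor chains, 6 encode antagonists or decoys (Il1rn, Il1f5, Il18bp, Il1r2, Il13ra2 and Il22ra2) and 1, Il4i1, encodes an enzyme. The 84 identifiers carry 82 symbols, since Il11ra2 has 3 identifiers, among whose near-identical copies reads can be split. Il1bos, a non-coding gene whose symbol also matches, was left out.

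RNA was taken from whole epididymal fat, the visceral depot beside the epididymis, and sequenced in 3 libraries for each diet. The mice were untreated C57BL/6J males that received either ND (4.5% fat) or HFD (60% fat) from 4 weeks of age for 16 weeks. The study asked whether the visceral fat of obese mice contains cells that resemble cancer-associated adipocytes. Whether each library holds 1 animal or a pool was not stated, so p-values measure the spread between these libraries.

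Interleukins are small secreted proteins with which immune and stromal cells signal to each other. A ligand acts through a complex that usually joins a private receptor chain, which sets the specificity, to a shared chain such as Il2rg, Csf2rb or Il6st, which carries the signal inwards. Antagonists and decoys bind the ligand or the receptor without signalling and so limit the response. In fat, macrophages, T cells, innate lymphoid cells, mast cells, stromal cells and adipocytes make or receive these signals.

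Count totals lay between 16996896 and 18859320 per library, and a floor of 3 counts corresponded to 0.149 to 0.180 CPM (the count scaled to library size after TMM normalization). The members together took 0.0868% to 0.159% of the counts. Adipocyte markers were abundant in every library (12824 to 27520 CPM summed over 7 genes). The third ND library stood apart in epithelial markers, with 169 CPM summed over 5 genes against 8.69 to 12.4 CPM in the other 5 libraries and with 751 counts of Epcam against 0 to 4.

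Of the 84 members, 43 had enough counts to be tested and 13 had no count in any library. By edgeR's quasi-likelihood test with Benjamini-Hochberg adjustment over all 15751 genes tested, 8 members rose on HFD, 4 fell and 31 did not pass the threshold of 0.05. Across all genes tested 9.85% rose and 6.04% fell. Without each ND library in order 3, 2 and 6 members rose and 0 fell, without the first HFD library 4 rose and 0 fell, without the second 12 rose and 4 fell, and without the third 7 rose and 2 fell. With the replicate number as a block 7 rose and 0 fell (6 lower at an unadjusted p under 0.05 by edgeR). Every HFD library lay above every ND library in 16 of the 43 members and below in 9, against 21.9% and 19.0% of all genes tested. The median log2 fold change was 0.21 over the 43 members and 0.0074 over all genes tested. The filter favoured a difference in a member that reached its level in the libraries of 1 diet alone, which applies to Il13ra2 (HFD) and Il22ra2 (ND). Il17rb reached this level in 3 ND libraries and 1 HFD library.

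Counted by role, of the 9 tested ligands, 0 rose and 1 fell (median log2 fold change 0.19). Across all genes tested 9.85% rose and 6.04% fell, so the counts of so few ligands lie near these shares. edgeR gave 0 higher ligands at an unadjusted p under 0.05 as well, limma-voom gave 0, and DESeq2 gave 1, Il10, which edgeR's filter had removed. Among the 4 tested antagonists and decoys 2 rose and 1 fell (median 1.37, range -2.08 to 5.95). Of these calls, Il13ra2 and Il22ra2 reached the filter level in 1 diet alone, so their differences were favoured by the filter. Among the 30 tested receptor chains 6 rose and 2 fell (median 0.22). Whether the shares differ between roles was not tested.

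**Figure D1:**
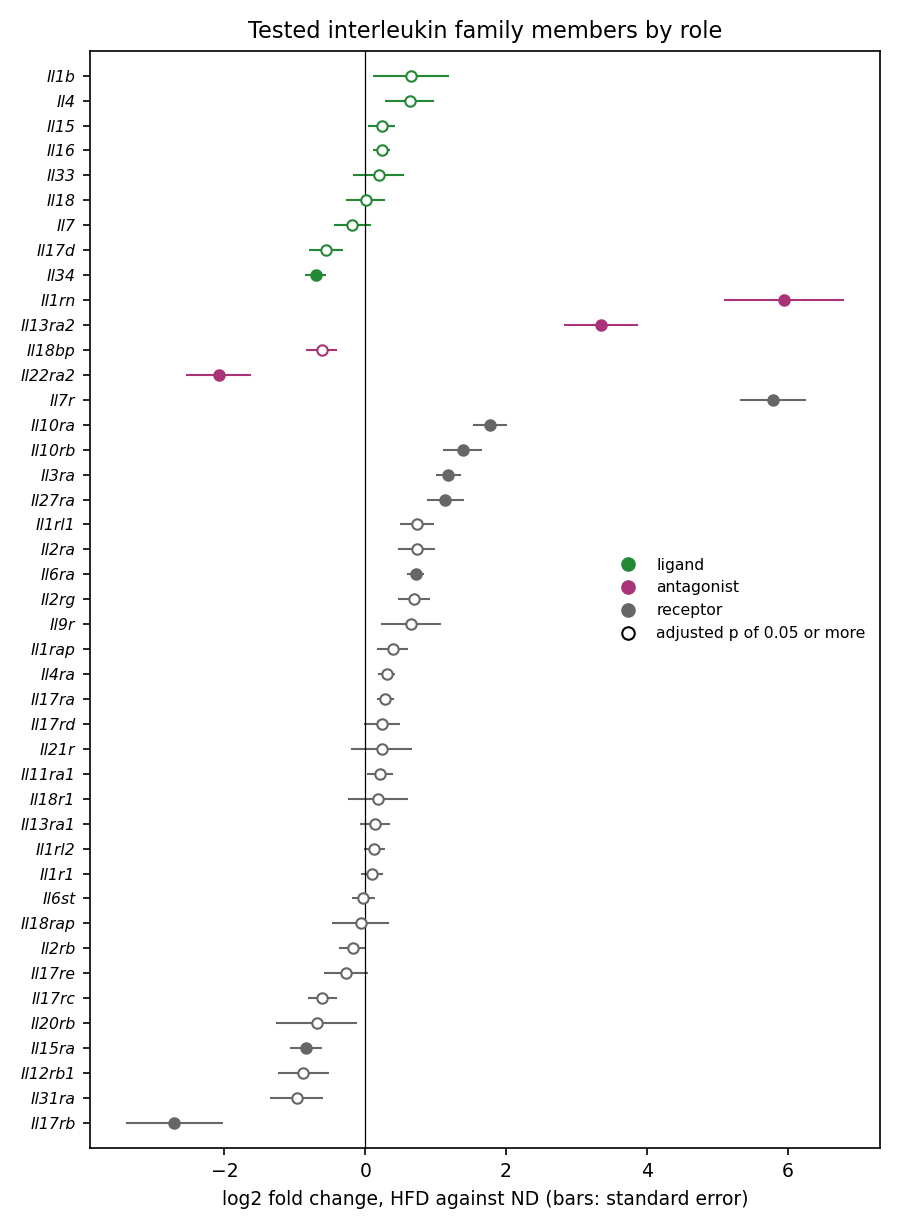
Log2 fold change of HFD against ND (horizontal axis) for the 43 tested members, grouped as ligands, antagonists and receptors, with bars of 1 standard error; filled points have an adjusted p under 0.05. Il1rn (5.95) and Il7r (5.79) lie far to the right of all others, and Il17rb (-2.71) lies farthest to the left.

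The levels themselves, compared between genes on the FPKM scale (scaled to transcript length and library depth), were led by receptor chains. Il6st, which encodes gp130, the chain shared by the IL-6 family, had the highest level of all members on both diets, 31.8 ± 3.44 FPKM on ND and 30.9 ± 3.55 FPKM on HFD (SD, n = 3 each). It alone took 18.5% to 38.1% of the CPM of all members in a library. Il11ra1, the receptor for IL-11, came second among receptor chains on ND with 19.9 ± 1.58 FPKM, and its level on HFD was 22.8 ± 5.69 FPKM. Among the ligands Il34 was highest on both diets (16.3 ± 1.13 FPKM on ND and 9.87 ± 1.40 FPKM on HFD), followed by Il17d with 9.20 ± 1.27 and 6.19 ± 1.72 FPKM. Il18, Il33 and Il15 lay next at 4.94 ± 1.24, 4.60 ± 1.997 and 3.82 ± 0.227 FPKM on ND, and these neighbours differed by less than their spread. In this order Il7r moved from place 27 of the 40 receptor chains on ND to place 4 on HFD.

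Il7r (ENSMUSG00000003882, chromosome 15 of GRCm38 from 9505788 to 9530176) encodes the alpha chain that binds IL-7 together with Il2rg and TSLP together with Crlf2. Its counts were 30, 25 and 37 under ND against 1467, 796 and 2546 under HFD. Each HFD library lay more than an order of magnitude above every ND library. In CPM the mean was 1.64 ± 0.197 under ND against 91.5 ± 50.3 under HFD (SD over 3 libraries each). On the log2 scale the gene rose by 5.79 (standard error of the log2 fold change, SE, 0.47, edgeR adjusted p = 0.0033), and it passed in all 18 alternative fits, the 6 that leave out a library included.

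Il1rn (ENSMUSG00000026981, chromosome 2 from 24336853 to 24351494) encodes the IL-1 receptor antagonist, which occupies the IL-1 receptor without signalling. It had 50, 31 and 37 counts under ND against 1898, 473 and 4522 under HFD, so that the groups were far apart although the HFD libraries differed among themselves. The log2 fold change was 5.95 (SE 0.85, edgeR adjusted p = 0.0092). It remained past the threshold in 15 of 18 alternatives, and the adjusted p was 0.0504 without the second ND library, 0.0506 in edgeR without the filter and 0.0667 in limma on unfiltered FPKM values. Il13ra2 (ENSMUSG00000031289, chromosome X from 147383476 to 147429192) encodes a chain that binds IL-13 tightly and is regarded as a decoy. It had 4, 2 and 4 counts under ND against 30, 19 and 50 under HFD, a rise of 3.35 on the log2 scale (SE 0.53, edgeR adjusted p = 0.0106). It entered the test through the HFD libraries alone, and its adjusted p was 0.00591 without the filter and 0.0521 and 0.0534 without the first or the second ND library.

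The bases just before the annotated starts of these members with the largest rises are shown to set their sequences side by side. They are the RefSeq windows of 250 bases upstream of a start, read 5′ to 3′ on the strand of the gene in GRCm38.p6. Capitals mark AP-1 (TGANTCA), STAT (TTCNNNGAA) or C/EBP (TTGCNNAA) letters. The Il7r window lies at chr15:9529877-9530126 on the minus strand and the Il13ra2 window at chrX:147429193-147429442 on the minus strand. Of Il1rn, 2 windows are shown, at chr2:24336610-24336859 and chr2:24345041-24345290 on the plus strand, since its transcripts start at more than 1 place. A further Il1rn window, at chr2:24345121-24345370, overlaps the downstream window, holds no match to these motifs and is not shown. RefSeq starts can differ from the GENCODE bounds given above. The Il7r window and the downstream Il1rn window lie inside those bounds, and the upstream Il1rn window overlaps them at its end.
Il7r: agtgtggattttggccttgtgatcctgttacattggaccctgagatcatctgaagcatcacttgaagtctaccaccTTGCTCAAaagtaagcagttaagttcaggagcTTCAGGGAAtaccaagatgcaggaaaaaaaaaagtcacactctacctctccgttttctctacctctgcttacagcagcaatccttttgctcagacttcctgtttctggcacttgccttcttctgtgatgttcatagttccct
Il1rn, upstream start: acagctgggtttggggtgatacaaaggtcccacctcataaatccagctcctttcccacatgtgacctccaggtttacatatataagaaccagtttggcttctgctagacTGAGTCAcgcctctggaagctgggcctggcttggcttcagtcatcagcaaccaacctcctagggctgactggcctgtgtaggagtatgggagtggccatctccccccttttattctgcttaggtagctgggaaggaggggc
Il1rn, downstream start: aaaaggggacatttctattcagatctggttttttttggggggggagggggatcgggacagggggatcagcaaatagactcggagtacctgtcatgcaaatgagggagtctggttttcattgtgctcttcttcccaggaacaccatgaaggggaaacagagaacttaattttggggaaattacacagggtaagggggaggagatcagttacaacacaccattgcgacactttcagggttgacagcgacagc
Il13ra2: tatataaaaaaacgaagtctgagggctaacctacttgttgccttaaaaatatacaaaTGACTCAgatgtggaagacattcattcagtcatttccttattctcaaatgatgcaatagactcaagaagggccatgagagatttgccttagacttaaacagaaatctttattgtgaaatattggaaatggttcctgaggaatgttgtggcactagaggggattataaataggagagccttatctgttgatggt

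In these windows the Il7r sequence held 1 STAT match, 142 bases before the start, and 1 C/EBP match, 174 bases before it. The upstream Il1rn window held 1 AP-1 match at 141 bases and the Il13ra2 window 1 AP-1 match at 193 bases, while the downstream Il1rn window held no match to any of the 5 motifs searched on both strands. Over all 32851 windows of this length the AP-1 letters were present in 6.75%, the STAT letters in 7.02%, the C/EBP letters in 9.56%, the PU.1 letters (GAGGAAGT) in 2.44% and the kappa B motif in 7.25%. The 80 windows found for 65 member symbols held them in 14, 8, 14, 2 and 6 windows in the same order, and several windows of 1 gene overlap. A match is a description of letters and not a binding site.

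The IL-1 group set a large rise of the antagonist beside ligands and receptors that did not pass the test. Il1b, the main secreted IL-1, had 18, 15 and 10 counts under ND against 18, 10 and 36 under HFD, and the groups overlapped (log2 fold change 0.65, SE 0.54, edgeR adjusted p = 0.435). Il1a had 1, 2 and 3 counts under ND against 4, 1 and 12 under HFD and was not tested. The FPKM ratio of Il1rn to Il1b was 0.957, 0.712 and 1.27 on ND, whereas on HFD it was 36.3, 16.3 and 43.3. The groups did not overlap, and the exact two-sided permutation p was 0.1, the smallest that 3 against 3 libraries allow. With Il1b not past the threshold, the ratio mainly restates the rise of Il1rn and is not a separate result. Il1r1, the signalling receptor that the antagonist occupies, had 759, 608 and 939 counts under ND against 741, 653 and 899 under HFD (log2 fold change 0.10, SE 0.16, edgeR adjusted p = 0.713). Its coreceptor Il1rap had a log2 fold change of 0.39 (SE 0.22, edgeR adjusted p = 0.268). The decoy Il1r2 had 5, 11 and 3 counts under ND against 8, 5 and 18 under HFD, too few to be tested, and its FPKM ratio to Il1r1 overlapped between the diets (exact permutation p = 0.4).

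The IL-18 and IL-33 pairs of the same family did not pass. Il18 had 85, 69 and 130 counts under ND against 76, 97 and 90 under HFD (log2 fold change 0.01, SE 0.27, edgeR adjusted p = 0.989). Il18bp, the soluble protein that neutralises IL-18, had 148, 190 and 144 counts under ND against 107, 91 and 99 under HFD, with every HFD library lower, but the difference did not pass (log2 fold change -0.62, SE 0.22, edgeR adjusted p = 0.0964). The chains of the IL-18 receptor, Il18r1 and Il18rap, had log2 fold changes of 0.18 and -0.06 with standard errors of 0.42 and 0.40. Il33, an alarmin stored in stromal nuclei, had 296, 112 and 337 counts under ND against 249, 208 and 327 under HFD (log2 fold change 0.19, SE 0.36, edgeR adjusted p = 0.745). Its receptor Il1rl1 had 179, 143 and 178 counts under ND against 286, 167 and 327 under HFD, a log2 fold change of 0.73 with an edgeR adjusted p of 0.0805.

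Both chains of the IL-10 receptor rose. IL-10 restrains macrophage activation through Il10ra, its private chain, and Il10rb, which is shared with IL-22 and related ligands. Il10ra (ENSMUSG00000032089, chromosome 9 from 45253837 to 45269149) had 316, 336 and 358 counts under ND against 1016, 741 and 1481 under HFD. This is a log2 fold change of 1.77 (SE 0.24, edgeR adjusted p = 0.0081), which passed in all 18 alternatives. Il10rb (ENSMUSG00000022969, chromosome 16 from 91406164 to 91425834) had 619, 640 and 706 counts under ND against 1594, 966 and 2279 under HFD, a log2 fold change of 1.39 (SE 0.28, edgeR adjusted p = 0.0200). Without each of the ND libraries, in order, or the first HFD library its adjusted p was 0.0809, 0.0742, 0.0647 and 0.0719 in turn. The FPKM ratio of Il10ra to Il10rb was 0.556, 0.572 and 0.552 on ND and 0.694, 0.835 and 0.707 on HFD, without overlap (exact permutation p = 0.1).

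Il10 itself (ENSMUSG00000016529, chromosome 1 from 131019845 to 131024974) had 1, 1 and 0 counts under ND against 36, 6 and 31 under HFD, and edgeR's filter removed it. Every HFD library was above every ND library, the second HFD library least. The count ratio of HFD to ND, scaled for library size, was 39.0, with an exact 95% interval of 10.4 to 328 that covers counting error only. Without the filter the edgeR adjusted p was 0.0079 and with DESeq2 it was 0.0012, while limma on the unfiltered FPKM values gave 0.130. In the fits without an ND library, in which Il10 passed the filter, the edgeR adjusted p was 0.0722, 0.0717 and 0.0617, and it was 0.0032 without the second HFD library. In these fits Il10 entered the test through the HFD libraries alone, so the filter favoured such a difference.

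Among the other members of the IL-10 family, the decoy Il22ra2 fell and the receptor chain Il20rb did not pass. Il22ra2 (ENSMUSG00000039760, chromosome 10 from 19621998 to 19634681) encodes a soluble protein that captures IL-22. It fell from 21, 24 and 28 counts on ND to 9, 4 and 3 on HFD, a log2 fold change of -2.08 (SE 0.46, edgeR adjusted p = 0.0263). It entered the test through the ND libraries alone, so the filter favoured such a difference, and without the filter the adjusted p was 0.0479. The call was lost without each of the 6 libraries in turn (adjusted p from 0.05004 to 0.0864) and with the replicate number as a block (adjusted p = 0.0667). Il22 had no count in any library, and Il22ra1, its signalling chain, had 8, 6 and 19 counts under ND against 10, 8 and 4 under HFD. Il20rb had 74, 72 and 324 counts under ND against 76, 70 and 117 under HFD (edgeR adjusted p = 0.434). Il20rb and Il22ra1 were highest in the third ND library, which carried the epithelial markers, and the part of these cells in the values was not tested.

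Among the chains and ligands that signal with the common gamma chain, Il15ra fell. Il15ra (ENSMUSG00000023206, chromosome 2 from 11705290 to 11734317) presents IL-15 to neighbouring cells. It had 583, 753 and 799 counts under ND against 421, 431 and 265 under HFD, a log2 fold change of -0.84 (SE 0.22, edgeR adjusted p = 0.0439). The call was lost without any of the 3 ND libraries or the first HFD library, with adjusted p of 0.0754, 0.130, 0.105 and 0.119, and with the replicate number as a block (0.0605). Il15 had 156, 138 and 183 counts under ND against 180, 139 and 207 under HFD (log2 fold change 0.24, SE 0.19, edgeR adjusted p = 0.420). The FPKM ratio of Il15ra to Il15 was 1.90, 2.77 and 2.22 on ND and 1.19, 1.58 and 0.651 on HFD (exact permutation p = 0.1, no overlap). This ratio mainly restates the fall of Il15ra and is not a separate result.

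IL-7 and IL-2 chains other than Il7r changed less than their error allowed to call. Il7, the ligand of Il7r, had 108, 64 and 84 counts under ND against 75, 63 and 73 under HFD (log2 fold change -0.18, SE 0.26, edgeR adjusted p = 0.658). Il2rg, the common gamma chain, had 176, 171 and 145 counts under ND against 270, 181 and 303 under HFD, a log2 fold change of 0.69 (SE 0.22, edgeR adjusted p = 0.0756). Il2rb, the chain shared by IL-2 and IL-15, had a log2 fold change of -0.18 (SE 0.19). Crlf2, the chain with which Il7r binds TSLP, rose from 357, 408 and 407 to 1145, 807 and 1361 counts (log2 fold change 1.58, SE 0.19, edgeR adjusted p = 0.0065). Tslp, the ligand of the Il7r and Crlf2 pair, had 38, 43 and 41 counts under ND against 27, 24 and 13 under HFD (log2 fold change -0.84, SE 0.36, edgeR adjusted p = 0.152).

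The type 2 cytokines were low. Il4 had 20, 16 and 23 counts under ND against 21, 33 and 31 under HFD (log2 fold change 0.63, SE 0.35, edgeR adjusted p = 0.246). Il13 had 4, 3 and 1 counts under ND against 5, 4 and 1 under HFD, and Il5 had 1 count in all libraries together, which is too shallow to detect a difference. Il4ra, the chain through which IL-4 and IL-13 signal, had 1078, 992 and 1140 counts under ND against 1157, 1167 and 1380 under HFD (log2 fold change 0.30, SE 0.12, edgeR adjusted p = 0.120). Il13ra1, the signalling IL-13 chain, had a log2 fold change of 0.13 (SE 0.21). The FPKM ratio of the decoy Il13ra2 to Il13ra1 was 0.0202, 0.0127 and 0.0150 on ND and 0.147, 0.115 and 0.187 on HFD. The groups did not overlap (exact permutation p = 0.1), and the decoy stayed below the signalling chain in every library. Il13ra2 had only 4, 2 and 4 counts under ND and entered the test through the HFD libraries alone. The ratio therefore restates the rise of Il13ra2 and is not a separate result.

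**Figure D2:**
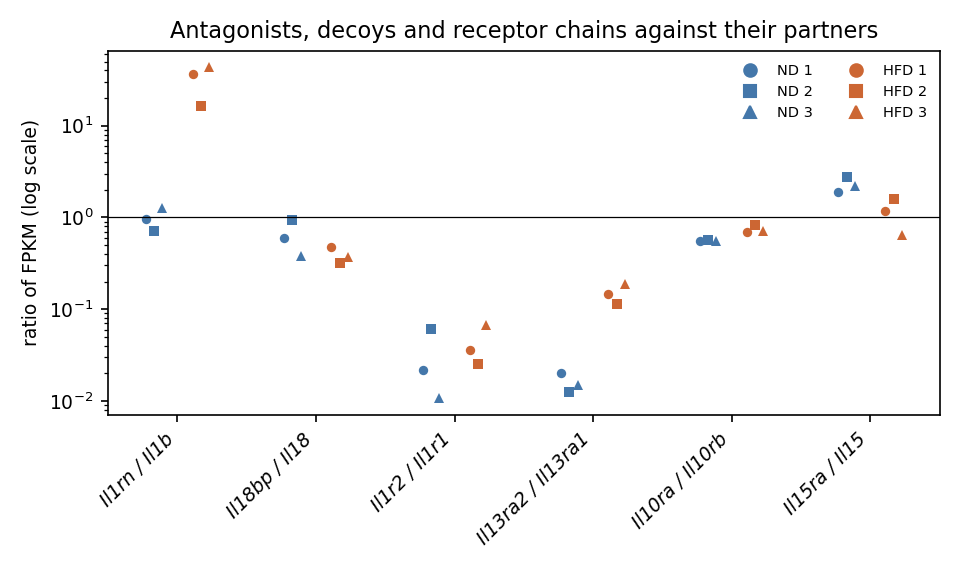
FPKM ratio (vertical axis, log scale) of antagonists, decoys or receptor chains to their ligand or partner chain in each of the 6 libraries; blue marks ND and orange HFD, with a symbol per replicate number. Il1rn over Il1b lies near 1 on ND and from 16.3 to 43.3 on HFD, and Il18bp over Il18 and Il1r2 over Il1r1 overlap between the diets.

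In the IL-6 and IL-12 group, 2 private chains rose beside a shared chain that did not pass. Il6ra (ENSMUSG00000027947, chromosome 3 from 89864059 to 89913196), the IL-6 binding chain, had 883, 755 and 1062 counts under ND against 1594, 1230 and 1321 under HFD. The log2 fold change was 0.71 (SE 0.12, edgeR adjusted p = 0.0132), and the adjusted p was 0.0656, 0.0575 and 0.0732 without the first ND, the second ND or the first HFD library. Il27ra (ENSMUSG00000005465, chromosome 8 from 84030294 to 84042589), the receptor for IL-27, had 136, 100 and 106 counts under ND against 246, 158 and 305 under HFD. Its log2 fold change was 1.14 (SE 0.26, edgeR adjusted p = 0.0294). It lost the call without any library but the second HFD library, with adjusted p from 0.0570 to 0.108, and with the replicate block (0.0593). Il27ra shares exonic bases with Palm3, whose counts were 40, 19 and 35 under ND against 84, 36 and 68 under HFD, and the strand setting of the counting was not stated. Il17rb likewise shares exonic bases with Actr8 (632, 584 and 709 counts under ND against 610, 591 and 534 under HFD) and Il34 with Gm15894 (7, 9 and 12 against 2, 5 and 1), while the genes that overlap Il3ra, Il6ra and Il10rb had 0 to 7 counts.

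Il6st, the chain through which both signal, had 7207, 5529 and 6651 counts under ND against 6258, 6301 and 5249 under HFD (log2 fold change -0.03, SE 0.16, edgeR adjusted p = 0.926). Il6 had 6, 1 and 2 counts under ND against 4, 5 and 12 under HFD, a count ratio of 2.49 (exact 95% interval 1.09 to 6.18, counting error only), and was not tested. Il27, the private subunit of IL-27, had 0, 2 and 1 counts under ND against 7, 4 and 6 under HFD (count ratio 6.05, interval 1.75 to 32.2). Ebi3, its partner subunit, rose from 31, 21 and 38 to 83, 67 and 81 counts (log2 fold change 1.46, SE 0.29, edgeR adjusted p = 0.0189). Il12b, the subunit shared by IL-12 and IL-23, had 7, 4 and 0 counts under ND against 10, 8 and 12 under HFD. Il12rb2, a signalling chain for IL-12, had 8, 2 and 4 counts under ND against 31, 9 and 26 under HFD, a count ratio of 5.04 (interval 2.80 to 9.71), with an adjusted p of 0.0347 by DESeq2 and 0.0632 by edgeR without the filter. Il12rb1, with which it pairs, had 21, 17 and 23 counts under ND against 13, 7 and 11 under HFD (edgeR adjusted p = 0.139).

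Il3ra rose together with its signalling partners. Il3ra (ENSMUSG00000068758, chromosome 14 from 14346275 to 14356011) binds IL-3 and pairs with the common beta chain Csf2rb or, in mice, with Csf2rb2. It had 276, 286 and 359 counts under ND against 690, 483 and 787 under HFD, a log2 fold change of 1.18 (SE 0.18, edgeR adjusted p = 0.0102). Without the first ND, the second ND or the first HFD library the adjusted p was 0.0523, 0.0507 and 0.0518. Csf2rb had 1067, 1137 and 1005 counts under ND against 2064, 1611 and 2434 under HFD (log2 fold change 1.01, edgeR adjusted p = 0.0128), and Csf2rb2 rose by more (2.16, adjusted p = 0.0074). Il3, the ligand, had no count in any library.

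The IL-17 group held 1 call, and it rested on few counts. Il17rb (ENSMUSG00000015966, chromosome 14 from 29996135 to 30008896), a chain of the receptor for IL-25, had 59, 34 and 150 counts under ND against 7, 20 and 6 under HFD. The groups did not overlap, and the log2 fold change was -2.71 (SE 0.69, edgeR adjusted p = 0.0398). The third ND library, which carried the epithelial markers, was the highest. Without it the log2 fold change was -2.03 (adjusted p = 0.0948), and the other leave-outs gave 0.0900 without the first ND library, 0.0619 without the second ND, 0.145 without the first HFD and 0.0812 without the third HFD library. It passed in 8 of 18 alternatives, and the adjusted p was 0.0977 with the replicate block, 0.0505 by limma-voom and 0.0535 to 0.159 by limma on FPKM values. Il17rc, a chain of the IL-17A receptor, had 763, 726 and 732 counts under ND against 466, 568 and 330 under HFD, with every HFD library lower but an adjusted p of 0.0903 (edgeR, log2 fold change -0.61). Il17ra had a log2 fold change of 0.29 (SE 0.12, edgeR adjusted p = 0.145). Of the ligands, Il17a had no count, which allows at most the 3 counts of the floor in a library, and Il17d had 247, 186 and 211 counts under ND against 171, 147 and 93 under HFD (log2 fold change -0.56, SE 0.25, edgeR adjusted p = 0.159).

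Il34 was the 1 ligand that fell. IL-34 is a second ligand of the CSF1 receptor, on which macrophages depend, and is unrelated in sequence to the other interleukins. Il34 (ENSMUSG00000031750, chromosome 8 from 110741829 to 110805924) had 569, 507 and 684 counts under ND against 400, 323 and 286 under HFD, or 31.4 ± 2.40 and 19.2 ± 2.69 CPM. The log2 fold change was -0.71 (SE 0.14, edgeR adjusted p = 0.0206). Without any ND library or without the first HFD library the adjusted p was 0.0747, 0.0612, 0.0644 and 0.0548, and with the replicate block it was 0.0503. Its receptor Csf1r rose from 3021, 2619 and 3308 to 7140, 4914 and 8904 counts (log2 fold change 1.32, edgeR adjusted p = 0.0114), and Csf1, the other ligand, had a log2 fold change of -0.10 (SE 0.14). Il16, a T cell attractant made as a long precursor, had 368, 341 and 390 counts under ND against 449, 373 and 389 under HFD (log2 fold change 0.23, SE 0.11, edgeR adjusted p = 0.199).

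**Figure D3:**
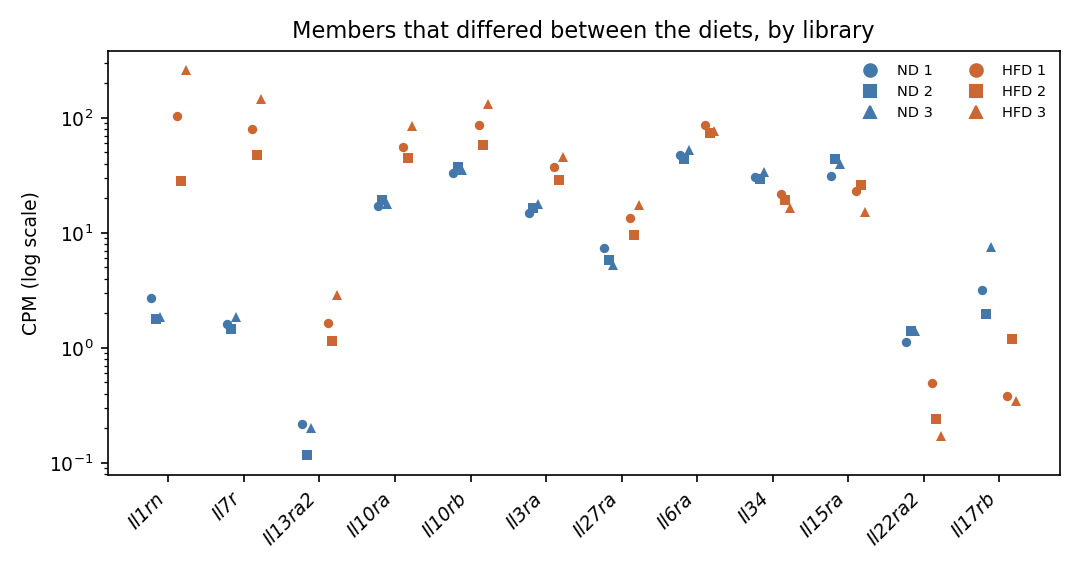
CPM (vertical axis, log scale) of the 12 members that passed the test, in each of the 6 libraries; blue marks ND and orange HFD, with a symbol per replicate number. In each gene the diets do not overlap, and the third HFD library is the highest and the second the lowest of its group in Il1rn, Il7r and Il13ra2.

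Of 54 further genes that work with the members (chains and ligands of other names, IL-1 processing and signalling, IL-4 and IL-13 targets, and IL-6 and IL-10 signalling), 50 were tested, 15 rose and 0 fell by edgeR, against 9.85% and 6.04% of all genes. At an unadjusted p under 0.05 edgeR gave 22 higher and 0 lower, and DESeq2 gave 22 higher and 0 lower after adjustment. Without each ND library in order 3, 5 and 6 rose, and without the first HFD library 3 rose. In the list of IL-1 processing and signalling 7 of 18 rose (median log2 fold change 0.39). These included Casp1, the protease that matures IL-1 beta and IL-18, with 240, 241 and 227 counts under ND against 832, 550 and 1230 under HFD (log2 fold change 1.97, SE 0.28, edgeR adjusted p = 0.0090). Pycard, the adaptor of the inflammasome, rose by 1.80 and the DNA sensor Aim2 by 1.39 on the log2 scale, followed by Gsdmd (0.86), Casp4 (0.81), Irak2 (0.80) and Irak4 (0.76). Nlrp3, the sensor upstream of Casp1, had 38, 19 and 37 counts under ND against 48, 23 and 73 under HFD and did not pass (edgeR adjusted p = 0.323).

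Of the chains and ligands of other names 6 of 14 tested rose, namely Ebi3, Csf2rb, Csf2rb2, Crlf2, Csf1r and Sdc1, a proteoglycan that can bind IL-34 (log2 fold change 2.15). Among the IL-4 and IL-13 targets 1 of 10 tested rose, the transcription factor gene Stat6 (0.70, edgeR adjusted p = 0.0161). Targets that mark alternatively activated macrophages went in different directions, with log2 fold changes of 2.12 for Arg1 (adjusted p = 0.0574) and -1.44 for Retnla (adjusted p = 0.161), neither of which passed edgeR's test. In IL-6 and IL-10 signalling 1 of 8 rose, the kinase gene Tyk2 (0.62, adjusted p = 0.0361). The counts of 1 in 10 and 1 in 8 lie near the 9.85% of all genes tested that rose. Stat3 had a log2 fold change of -0.06 (SE 0.12) and Socs3, its inhibitory target, of 0.37 (SE 0.31).

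Of 9 macrophage markers, Csf1r among them, 6 rose (median log2 fold change 1.74), against 9.85% of all genes tested. The summed level of the 9 was 1355 to 1443 CPM on ND and 3028 to 7178 CPM on HFD. Of 6 markers of lipid-associated macrophages 5 rose (median 4.93), among them Gpnmb, Trem2 and Itgax. Lpl, the other marker, was lower in every HFD library but did not pass (log2 fold change -0.33, edgeR adjusted p = 0.395). The T cell markers summed to 10.7 to 14.3 CPM on ND and 13.5 to 20.4 CPM on HFD, with 1 of 8 higher (Cd6). Mast cell markers summed to 34.2 to 59.1 CPM on ND and 54.4 to 199 CPM on HFD, with 0 of 6 past edgeR's adjusted threshold and 4 higher at an unadjusted p under 0.05. B cell markers summed to 5.82 to 18.7 CPM on ND and 6.56 to 20.4 CPM on HFD, and 0 of 5 passed in either direction, also unadjusted. Markers of NK and innate lymphoid cells summed to 51.1 to 60.6 CPM on ND and 40.5 to 48.5 CPM on HFD, and 0 of 6 passed (1 lower at an unadjusted p under 0.05 by edgeR). Neutrophil markers summed to 5.52 to 8.73 CPM on ND and 13.2 to 18.2 CPM on HFD, and 2 of the 3 tested rose (S100a8 and Csf3r). S100a9 went the other way without passing, with 24, 14 and 16 counts under ND against 17, 10 and 2 under HFD (log2 fold change -0.81, edgeR adjusted p = 0.412). Of the untested markers, Cxcr2 had 5, 0 and 2 counts under ND against 0, 2 and 1 under HFD. Ly6g, a defining marker, had 1 count in all. In whole fat, more cells of a type and more RNA per cell cannot be told apart.

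The called members were also set against the summed CPM of the 9 macrophage markers in the same library, as a description. Per 1000 CPM of these markers Il7r was at 1.12, 1.07 and 1.35 CPM on ND and at 20.2, 15.8 and 20.4 CPM on HFD, a fold of 15.9. Il1rn was at 1.87, 1.33 and 1.35 on ND and at 26.2, 9.40 and 36.2 on HFD (15.8-fold), and Il13ra2 was 3.13-fold higher. Il10ra overlapped between the diets on this scale (1.03-fold). Il10rb, Il3ra, Il27ra and Il6ra, which were higher per library, were lower per marker CPM, at 0.779, 0.713, 0.678 and 0.548 times the ND level. Lyz2 alone made up 61.8% to 67.4% of the summed marker CPM, and the folds of the single markers ran from 0.985 (Mertk) to 13.2 (Cd68). Against Csf1r alone, a denominator chosen after seeing the data, the 4 genes were at 1.02, 0.917, 0.875 and 0.690 times the ND level, so that the direction of Il10rb turned, Il10ra was 1.35-fold higher and Il7r and Il1rn were 21.3-fold and 22.0-fold higher. With the 8 markers other than Lyz2 the 4 genes were at 0.784, 0.717, 0.680 and 0.550 times the ND level. The 4 members that fell were at 0.209 (Il34), 0.198 (Il15ra), 0.0803 (Il22ra2) and 0.0593 (Il17rb) times the ND level per summed CPM of the 9 markers. Since the marker sum rose on HFD, members that fell per library had to be lower on this scale, so these values are not a separate result. The part of macrophage number in these results was not tested.

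**Figure D4:**
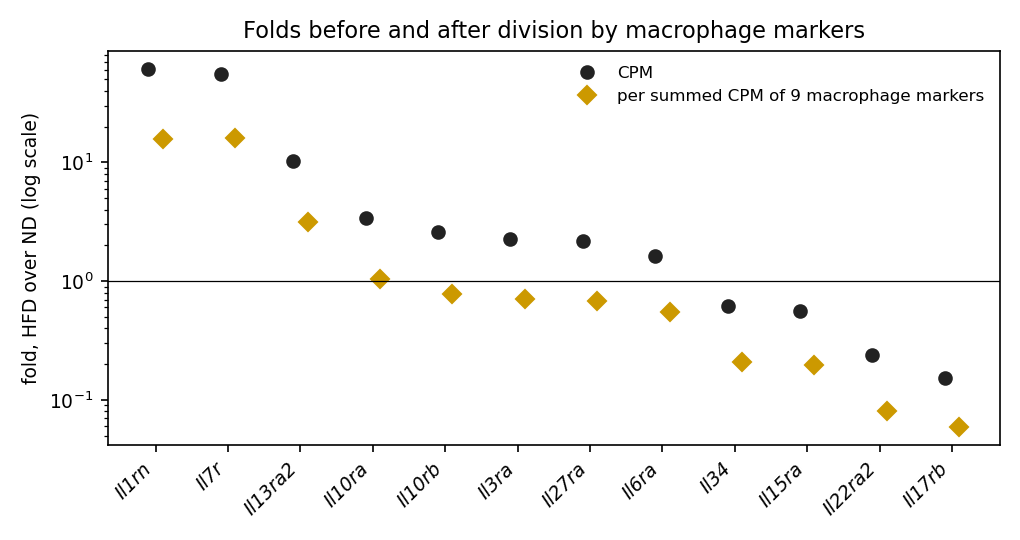
Fold of HFD over ND (vertical axis, log scale) of the 12 called members. Black circles, labelled CPM, are the fold changes fitted by edgeR. Yellow diamonds are ratios of the diet means per summed CPM of the 9 macrophage markers. Il7r (15.9-fold) and Il1rn (15.8-fold) remain highest after the division, Il10ra comes to 1.03, and Il10rb, Il3ra, Il27ra and Il6ra move from above 1 to below 1, except that Il10rb is at 1.02 against Csf1r alone (not plotted).

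The 7 tested receptor chains not yet given (Il2ra, Il9r, Il21r, Il31ra, Il1rl2, Il17rd and Il17re) had log2 fold changes between -0.98 in Il31ra and 0.73 in Il2ra, with edgeR adjusted p from 0.0928 to 0.741, and Il11ra1 had one of 0.21 (SE 0.18). The 13 members without a count were Il3, Il9, Il17a, Il20, Il22, Il24, Il31, Il1f5, Il1f6, Il1f8, Il1f10, Il1rapl2 and 1 copy of Il11ra2. The other 28 members had counts but did not pass the filter. The highest count of any untested member after Il10 and Il12rb2 was 19, in Il22ra1 in the third ND library, followed by 18 in Il1r2 and 12 in Il1a, Il12b and Il6. Il1f9, an epithelial IL-1 relative, had 1, 0 and 0 counts under ND against 3, 3 and 8 under HFD, and Il23r had 1, 1 and 1 under ND against 2, 4 and 8 under HFD. Gene counts do not separate secreted from intracellular Il1rn transcripts or soluble from membrane forms of Il6ra, Il1rl1 and Il15ra.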

How the data were processed

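RNA-Seq libraries of epididymal fat, 3 for each diet (ND or HFD), were analysed and grouped by the sample titles. The paper's methods name GRCm38 with TopHat and Cufflinks, whereas the submitters' processing notes name CASAVA 1.8, fastp, HISAT2 2.0.5, featureCounts 1.5.0-p3, DESeq2 1.20.0 and a human build. The identifiers are mouse Ensembl genes, and which of these tools made the tables, and with what strand setting, was not stated. The authors deposited raw counts per gene without normalization and FPKM values for the same genes. Names, biotypes and coordinates were taken from GENCODE mouse release 21 (M21, GRCm38), in which 54495 of 54532 identifiers were found, and promoter windows from RefSeq for GRCm38.p6. Windows were found for 7 of the 12 called members.

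HFD was compared with ND with the quasi-likelihood test of edgeR 4.0.16 under R 4.3.3 (TMM factors, filterByExpr, robust glmQLFit, diet as sole factor). Adjustment was by Benjamini-Hochberg over all genes tested, with a threshold of 0.05. CPM is the count scaled to the TMM-adjusted library size. Intervals of count ratios are exact binomial 95% intervals, and intervals and floors cover counting error only. Other fits used DESeq2 1.42.0, limma-voom (limma 3.58.1), size factors from DESeq2 or the plain library size, no filter or at least 10 counts in 3 libraries, robust=FALSE, protein-coding genes alone, a replicate block, all but 1 library, and limma on log2(FPKM + 1) where FPKM reached 0.5 in 3 libraries, on log2(FPKM + 0.1), or unfiltered. Same-numbered libraries come from different mice, and the titles state no pairing, so none was used in the main test. Their deviations from the group means did not correlate (r = -0.067, -0.039 and -0.0020), which cannot exclude shared handling. The scripts were tested on simulated data.

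Members, roles, partner lists, markers and ratios were chosen with earlier results of these data known. Named genes are every called member, every other tested ligand or antagonist, the tested chains of named ligands, Il6, Il10, Il4, Il13, Il17a and Il5, the untested members with the highest counts, and partner genes that were called or work with a named member.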

Additional observations from a re-analysis of the deposited data

How the results depend on the processing

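Members that rose numbered 8 (2 to 12 when 1 library was left out) and 4 with limma on unfiltered log2(FPKM + 1). Members that fell numbered 4, and 0 to 4 with 1 library left out, 1 with limma on log2(FPKM + 1), 1 with a pseudocount of 0.1 and 2 without the FPKM filter. With the replicate number as a block 7 members rose and 0 fell, and all 7 were among the 8. The titles give the libraries only a shared number, and calls lost under the block do not describe a weaker effect. Partner genes that rose numbered 15 (3 to 21 with 1 library left out), 9 with limma on log2(FPKM + 0.1) and 6 without the FPKM filter, and those that fell numbered 0 (0 to 1). DESeq2 gave 10 higher and 4 lower members, which include the 12 of edgeR. Without the second HFD library Il2rg, Il1rl1, Il10 and Il12rb2 rose as well, the last 2 having passed the filter there. Il10 and Il12rb2 did so through the HFD libraries alone, so the filter favoured their rise. In that fit Il17rc fell and Il22ra2 lost its call. Of 766 values of single members under the alternatives, 687 kept their direction and side of the threshold, 54 lost the call, 3 gained it, and 22 in 11 members that were not called changed sign without a call. No called member changed sign. Each leave-out has fewer samples; the cause of the differences between leave-outs was not tested. Depth left 28 members with counts untested by edgeR.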
